A study of Mus musculus with 6 samples.

Results

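The 629 genes without a name in the deposited expression table of melittin-treated THP-1 macrophages are described here, out of 20036 genes in all. They were chosen by a single rule, that the name column holds a dash. No measured value entered this rule, although earlier results of these data were known when the genes were chosen. THP-1 is an established human acute monocytic leukaemia line, and PMA, a phorbol ester, turns it into an adherent macrophage-like cell. The cells were kept for 48 h with PMA at 100 ng/ml below the permeable membrane of a Transwell. Tumour cells were then placed above it, and melittin, a membrane-lysing peptide from bee venom, was added at 3 µg/ml for 48 h of co-culture. There were 3 libraries titled Melittin and 3 titled NC, the comparison group. The labels neither spell out NC nor say whether tumour cells or a vehicle were present in those wells, so the co-culture and melittin cannot be told apart. They do not say either whether libraries came from separate cultures. A p-value here therefore reflects variation among these libraries alone, and that variation may be technical.

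A dash in the name column need not mean that a gene has no symbol elsewhere, which was not checked. A gene model without a symbol is one that an annotation project has placed on the genome but that no nomenclature committee has named. Such models include readthrough genes, in which a transcript runs from one gene into the next and joins exons of both, as well as alternative models laid over a known gene, antisense transcripts, members of large duplicated families such as the zinc finger genes, and genes on scaffolds, pieces of the assembly that lie outside the assembled chromosome sequences. A model that shares its span with a known gene also shares sequence with it, and short reads from shared exons fit both. Counting programs differ in whether such reads are dropped, split or counted for both genes, and neither the program nor its strand setting is given in the sources used here.

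Total counts ranged from 16001423 to 19597781 per library. The organism label reads mouse, but all 20036 gene identifiers were human. Of 10 monocyte and macrophage markers all 10 had counts, with a summed level of 1753 to 1769 CPM (counts scaled to library size after TMM, edgeR's correction for composition) in NC and 1264 to 1293 CPM in Melittin libraries, although CD68 had at most 10 counts over all libraries. Of 8 epithelial and prostate markers 5 had counts, summing to 64.9 to 68.8 CPM in NC and 93.2 to 104.9 CPM in Melittin libraries. EPCAM, KRT18 and KRT19 were at 0 counts and CDH1 and KLK3 had at most 10, so that 3 genes carried the sum. Of 3 fibroblast markers 2 had counts, summing to 18.6 to 19.7 CPM in NC and 23.9 to 27.0 CPM in Melittin libraries, with COL1A2 at 0. T cell markers summed to at most 0.223 CPM in any library. Of 3 B cell markers 2 had counts, summing to 0.347 to 0.492 CPM in NC and 0.715 to 1.07 CPM in Melittin libraries, with MS4A1 at 0. The part of these differences in the values below was not tested.

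Most unnamed genes had no reads. In 485 of 629 (77.1%) the count was 0 in every library, which allows up to 0.141 to 0.201 CPM per library (3 counts). This limit and the Wilson intervals of shares below cover counting error only. Among the 19407 named genes 3577 (18.4%) were at 0 throughout. Of the 144 unnamed genes with at least 1 count, 90 had fewer than 10 counts over all 6 libraries, 42 had 10 to 99 and 12 had 100 or more. Between 71 and 83 were seen in an NC library and between 77 and 86 in a Melittin library.

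The reads that did fall on unnamed genes were few and concentrated. All 629 together held 1495, 1650 and 1260 counts in NC replicates 1, 2 and 3, and 1326, 1496 and 1269 counts in Melittin replicates 1, 2 and 3. As a share of the library this was 0.00797% (95% Wilson interval 0.00758 to 0.00839%), 0.00842% (0.00802 to 0.00884%) and 0.00787% (0.00745 to 0.00832%) in NC, and 0.00799% (0.00757 to 0.00843%), 0.00766% (0.00729 to 0.00806%) and 0.00784% (0.00742 to 0.00828%) in Melittin libraries. The 2 groups overlapped. The mean share was 0.00809% ± 0.000291 (SD, n = 3) in NC and 0.00783% ± 0.000162 (SD, n = 3) in Melittin libraries, and the sign of this difference turned when the single most abundant unnamed gene was left out (0.00576% and 0.00607%). That gene, which overlaps HSPA14, held 25.8% of all 8496 counts on unnamed genes, and the 5 with the most counts held 64.1%.

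Overlap with a named gene was the commonest feature of the unnamed genes. By the spans in the table, introns included, 576 of 629 (91.6%) overlapped a named gene on the same strand by at least 1 base, against 1296 of 19407 named genes (6.68%) that overlapped another named gene in this way. A single unnamed gene overlapped only another unnamed gene on its strand, 4 overlapped genes on the opposite strand only, and 48 overlapped no gene. In 435 cases the unnamed gene overlapped 2 or more named genes on its strand, and in 1 case 11 of them. Named genes covered a median of 82.7% of the span of the 576. Of these, 67 lay wholly inside 1 named gene, and 136 held at least 1 whole named gene within them.

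Unnamed genes that lay apart from named genes carried reads more often than those that overlapped one. Of the 576 with a named gene on the same strand 120 (20.8%) had any count and 8 entered the test described below. Of the 48 without any overlap 20 (41.7%) had counts and 7 were tested, and all 4 with an overlap on the opposite strand only had counts, of which 2 were tested. The 576 genes held 45.9% of the counts on unnamed genes, the 48 held 42.6% and the 4 held 11.5%. On scaffolds 23 of 24 genes had no name, so these 23 had almost no named gene to overlap. Of them 8 had counts and 3 were tested. The gene over HSPA14 alone held 2188 of the 3903 counts on the 576. All these shares are a description and were not tested.

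**Figure D1:**
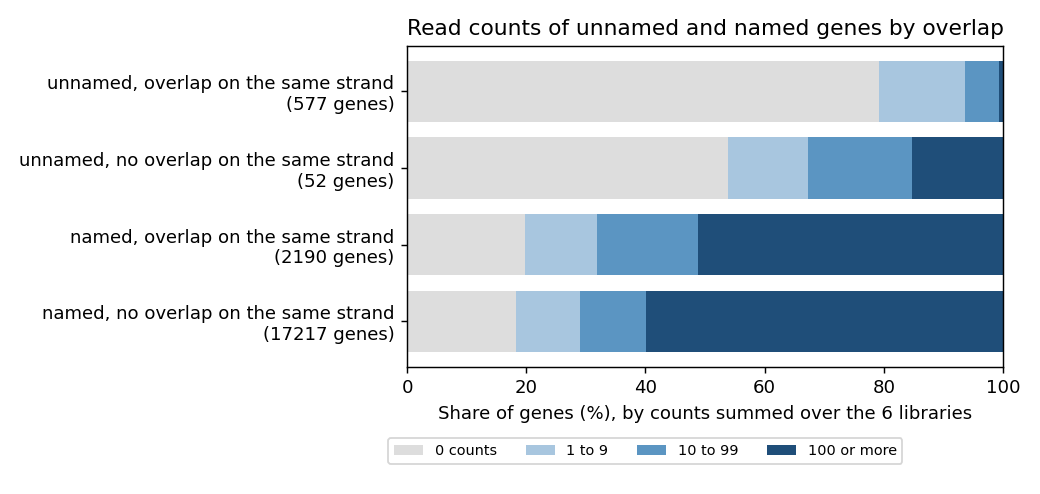
Share of genes (horizontal axis, %) by the sum of their counts over the 6 libraries (shades), for unnamed and named genes with and without any other gene overlapping them on their strand. Among unnamed genes with such an overlap 79.2% were at 0 counts and 0.693% had 100 or more, against 53.8% and 15.4% of unnamed genes without one.

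Named partners often had counts where the unnamed gene had none. The 1019 named genes that overlapped an unnamed gene on the same strand held 2284478 counts in all, and the 576 unnamed genes on them 3903, which is 0.171% of the partners' counts. In 320 of the 456 cases in which such an unnamed gene was at 0, a named partner had at least 100 counts over the 6 libraries. Per length, measured as the deposited FPKM (counts divided by gene length and library total), 9 of the 576 unnamed genes exceeded every named partner on their strand. Of these 9, 2 had enough counts to be tested, and they overlap ALDOA and ZNF844.

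Seen from the other side, named genes that shared their strand with an unnamed gene had lower median levels than those that shared it with no gene. The median mean FPKM was 0.0415 in the 176 named genes that lay wholly inside an unnamed gene, 0.443 in the 843 that overlapped one in part, 0.152 in the 1171 that overlapped only other named genes and 0.872 in the 17217 with no overlap on their strand. The share at 0 counts in every library was 26.1%, 13.0%, 23.7% and 18.3% in the same order. These named genes differ in other ways too, and whether reads in the shared spans were left out of the counts was not tested.

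**Figure D2:**
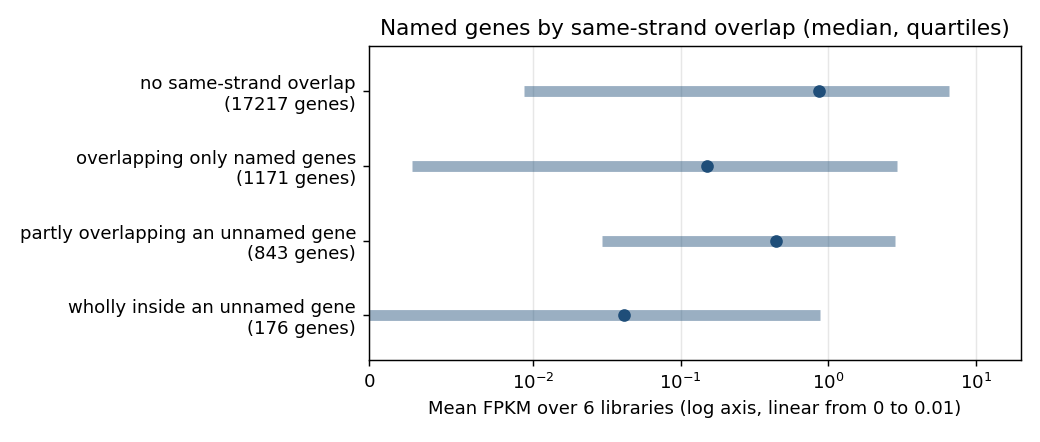
Mean FPKM over the 6 libraries (log axis, linear from 0 to 0.01) of named genes by their overlap on the same strand. Points are medians and bars run from the lower to the upper quartile. The median is lowest, at 0.0415, in the 176 genes wholly inside an unnamed gene, and highest, at 0.872, in the 17217 without an overlap.

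Levels varied widely among the named genes that lie within or on an unnamed gene, as 4 of them, chosen after their values were seen, show. PLEKHO2 had 12259 counts (30.5 FPKM) and CYBB, which encodes the catalytic subunit of the phagocyte NADPH oxidase, 8148 counts (15.6 FPKM), and both lie wholly inside an unnamed gene. ALDOA and GABARAP, which most cells use, had few counts. ALDOA encodes aldolase A, an enzyme of glycolysis, and 99.3% of its span lies within an unnamed gene on chromosome 16 (30053123 to 30070414, plus strand, GRCh38). ALDOA had 29, 15 and 13 counts in the NC libraries and 23, 37 and 25 in the Melittin libraries. The unnamed gene had 24, 18 and 24 counts in NC and 28, 17 and 11 in Melittin libraries, so that per length they stood side by side at 0.346 and 0.348 FPKM. GABARAP, which encodes a protein of the autophagosome membrane, had 6 counts in all, and the unnamed gene that overlaps both it and CTDNEP1 on their strand (chromosome 17, 7240427 to 7244635, minus strand) had 0.

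Unnamed genes were spread over the genome. They made up 606 of 20012 genes (3.03%) on the chromosomes and lay on 23 of them, with none on the Y chromosome or the mitochondrial genome. Chromosome 19, which is rich in zinc finger gene clusters, had the most, 82 of 1475 genes (5.56%), followed in share by chromosome 16 with 39 of 857 (4.55%). The lowest shares above 0 were on chromosome 21, with 4 of 219 genes (1.83%), and chromosome 2, with 24 of 1247 (1.92%). On 14 such scaffolds 23 of the 24 genes had no name, 8 of these 23 had counts, and they held 12.8% of the counts on unnamed genes.

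**Figure D3:**
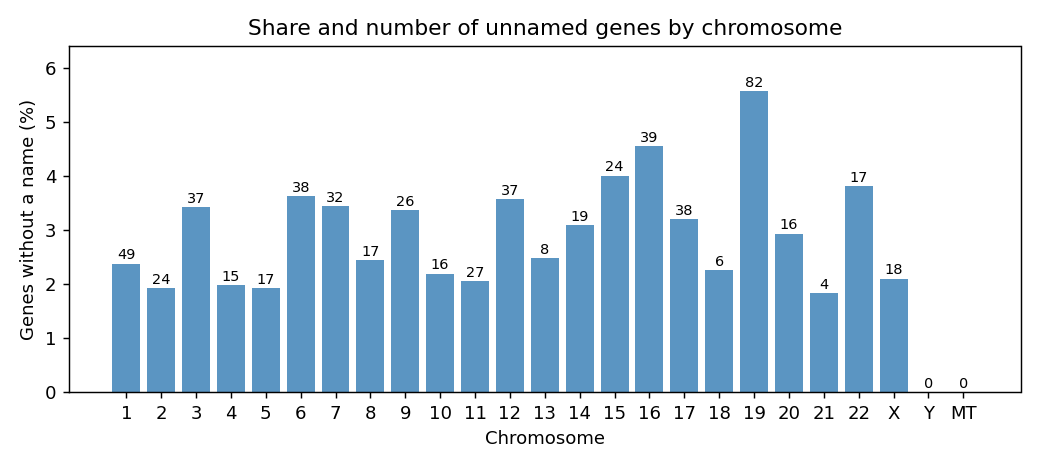
Share of the genes of each chromosome that have no name (vertical axis, %), with their number above each bar. Chromosome 19 stands highest with 82 genes, and chromosomes Y and MT have 0.

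The unnamed genes had short models and high identifier numbers. The median length in the table was 1786 bases (quartiles 759 and 3422) against 4513 (2605 and 7258) for named genes, while the median span on the genome was 35989 bases against 27280. The 17 unnamed genes that entered the test described below were not short as a set, with a median length of 4394 bases (372 to 10554). Among the 1000 highest identifier numbers, 444 belonged to unnamed genes, which is 70.6% of all unnamed genes. An Entrez gene number was given for 42 of 629 (6.68%), against 99.3% of named genes, and Gene Ontology terms for 412 (65.5%), against 97.8%. A SwissProt name was given for 7 of the 629, against 18864 of 19407 named genes.

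The deposited descriptions say little about most of them. For 387 the description says that the gene is a protein and for 96 that it is a transcript, with nothing more, and for 24 it is empty. It names a readthrough in 76 cases, all of them on the strand of a named gene. Of these 76 readthrough genes 19 had counts, 259 in all, and 1 was tested. A zinc finger is named in 9 descriptions, of which 5 had counts, 1713 in all, and 4 were tested. The 2 described as keratin-associated proteins had 0 counts. Among the 412 with ontology terms, terms with the word membrane occurred in 168 (40.8%, against 52.6% of named genes with terms), mitochondrial terms in 39 (9.47% against 9.60%), terms of zinc or metal ion binding in 53 (12.9% against 20.3%) and extracellular terms in 19 (4.61% against 22.0%). None of the 19 with extracellular terms had a count.

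Melittin and NC libraries were compared over the whole table with edgeR's quasi-likelihood test after a filter on low counts, with Benjamini-Hochberg adjustment over 12029 genes. The filter kept 17 of 629 unnamed genes (2.70%), against 12012 named genes (61.9%), and these 17 held 85.6% of the counts on unnamed genes. Of the 17, 4 rose and 5 fell, so 52.9% passed an adjusted p of 0.05, where 76.4% of all tested genes passed, 38.1% higher and 38.3% lower. In all 9 the NC and Melittin values did not overlap, and so it was in 10 of the 17, where 77.4% of all tested genes had groups that did not overlap. When CPM used library totals without TMM, 3 rose and 6 fell, and the median log2 fold change of all tested genes moved from -0.01 to -0.24. The median log2 fold change of the 17 was -0.17. Tested against a 1.5-fold change, 2 unnamed genes were higher and 4 lower, and 29.1% of all tested genes passed.

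**Figure D4:**
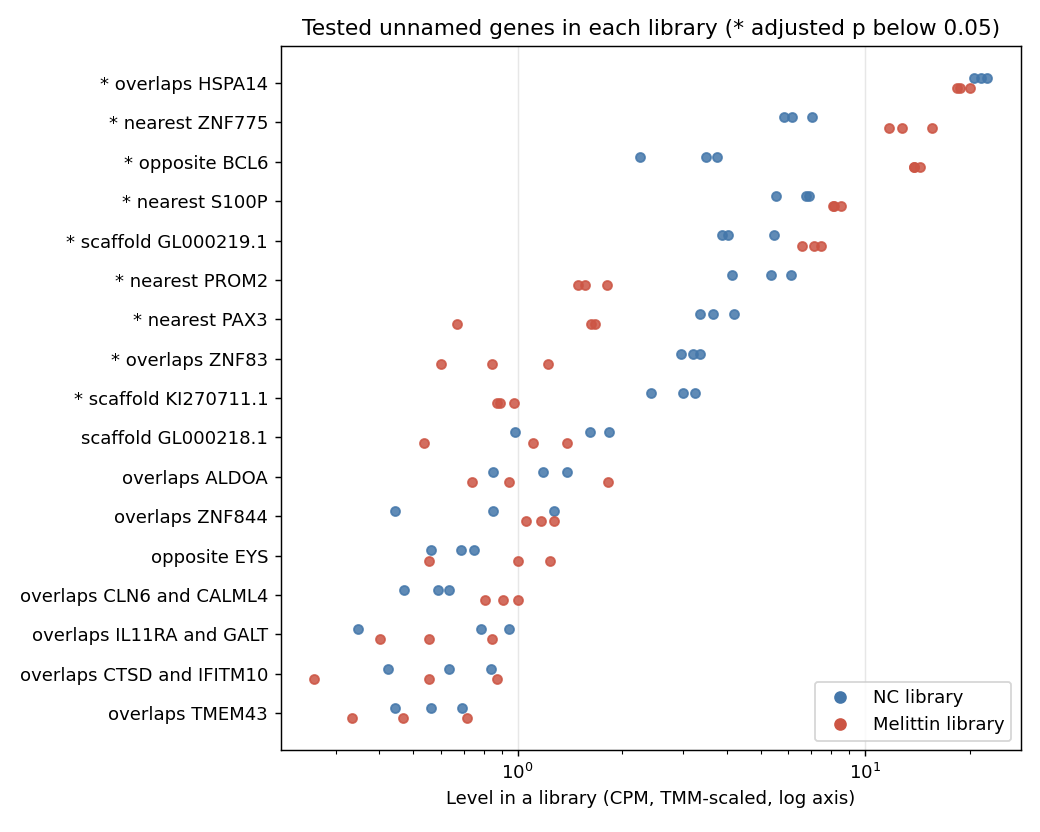
CPM (horizontal log axis) of the 17 tested unnamed genes in each of 3 NC and 3 Melittin libraries, 1 point per library, ordered by total count. Each gene is labelled by the named gene it overlaps on the same strand, else on the opposite strand, else by its scaffold or the nearest named gene, and a star marks the 9 that passed the test. In these 9 the points of the groups do not overlap. Of the nearest named genes used as labels, ZNF775 lies 2072 bases away, PROM2 14675, PAX3 15150 and S100P 17123.

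The largest rise was in a gene that the table describes as an antisense gene of BCL6 (ENSG00000285938; chromosome 3, 187743686 to 187746028, plus strand). BCL6, on the minus strand, encodes a transcriptional repressor of the BTB zinc finger family. The antisense gene had 76, 74 and 39 counts in the NC libraries and 213, 248 and 214 in the Melittin libraries. All 3 Melittin libraries lay well above the NC libraries. It went from 3.16 ± 0.794 to 13.99 ± 0.298 CPM (SD, n = 3), 4.36-fold higher (log2 fold change 2.13, SE 0.139, edgeR adjusted p = 1.053e-13). Per length it was the second most abundant unnamed gene, at a mean of 7.14 FPKM.

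The second to rise was described as a zinc finger protein (ENSG00000284691; chromosome 7, 150400702 to 150412470, plus strand). It overlaps no gene of the table, and ZNF775, itself a zinc finger gene, ends 2072 bases before it on the same strand. Its counts were 119, 149 and 107 in NC and 180, 229 and 233 in Melittin libraries. It went from 6.35 ± 0.599 to 13.4 ± 2.02 CPM, 2.09-fold higher (log2 fold change 1.06, SE 0.122, edgeR adjusted p = 9.944e-09). ZNF775 had a log2 fold change of 1.12 (SE 0.173), from 2.63 ± 0.161 to 5.75 ± 0.762 CPM (SD, n = 3). Both genes were thus higher in every Melittin than in any NC library.

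A gene on the scaffold GL000219.1 (54224 to 83311, minus strand) had the highest level per length of all unnamed genes, 15.2 FPKM over a model of 372 bases. This puts it at the 87.7th percentile of all genes in the table. Its counts were 82, 116 and 67 in NC and 115, 128 and 98 in Melittin libraries, which overlap as raw counts but not once scaled to library size. The mean rose from 4.45 ± 0.875 to 7.05 ± 0.459 CPM (SD, n = 3), which is 0.65 on the log2 scale (SE 0.150, edgeR adjusted p = 0.0003052). It missed the threshold when tested for more than a 1.5-fold change (edgeR adjusted p = 0.3678).

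The smallest rise was in a gene on chromosome 4 (6663396 to 6676755, plus strand) whose description likens it to a protein associated with the MORF4 family, and which overlaps no gene. It had 140, 118 and 117 counts in NC and 125, 153 and 121 in Melittin libraries. It went from 6.399 ± 0.734 to 8.25 ± 0.229 CPM, or 0.37 on the log2 scale (SE 0.126, edgeR adjusted p = 0.009645). The call was lost without TMM (0.14, adjusted p = 0.3098), in limma on FPKM with 0.1 added (0.13, adjusted p = 0.2278) or 1 added (0.09, adjusted p = 0.2206), in the test against 1.5-fold (adjusted p = 1) and without NC replicate 2 (0.27, adjusted p = 0.07964). Reads from a related gene elsewhere cannot be told apart from its own with certainty, and the same holds for the zinc finger genes.

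Of the 5 unnamed genes that fell, 2 are zinc finger genes. The one with the largest fall (ENSG00000269825; chromosome 19, 52650447 to 52690496, minus strand) lies wholly inside ZNF83, a zinc finger gene on the same strand. It had 65, 71 and 51 counts in NC and 13, 22 and 9 in Melittin libraries. It went from 3.16 ± 0.201 to 0.891 ± 0.313 CPM, 3.47-fold lower (log2 fold change -1.80, SE 0.264, edgeR adjusted p = 7.472e-07). The other (ENSG00000233757; chromosome 2, 95207521 to 95259774, plus strand), described as of the C2H2 type, in which each finger holds a zinc ion between cysteines and histidines, overlaps no gene. Its counts were 109, 88 and 106 in NC and 23, 28 and 27 in Melittin libraries, and it was 3.19-fold lower, from 5.21 ± 0.999 to 1.62 ± 0.166 CPM (SD, n = 3).

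A gene on scaffold KI270711.1 (4612 to 29626, minus strand), with no description, had 61, 69 and 42 counts in NC and 15, 16 and 13 in Melittin libraries. It was 3.17-fold lower with melittin (log2 fold change -1.67, SE 0.261). A gene on chromosome 2 (222314148 to 222320155, minus strand), which overlaps no gene and is described as the counterpart of a predicted mouse gene, had 74, 89 and 58 counts in NC and 25, 12 and 25 in Melittin libraries. It was 2.89-fold lower (log2 fold change -1.53, SE 0.255), and Melittin replicate 2 was the lowest of its 3.

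The most abundant unnamed gene by counts (chromosome 10, 14838302 to 14846999, plus strand) starts 4 bases before HSPA14, which encodes a ribosome-associated relative of the HSP70 chaperones, and 99.95% of its span lies within it. It had 419, 476 and 373 counts in NC and 309, 331 and 280 in Melittin libraries. It went from 21.5 ± 0.900 to 19.1 ± 0.883 CPM (SD, n = 3), and so fell by 0.17 on the log2 scale (SE 0.0777, edgeR adjusted p = 0.04353). This call ended in DESeq2 (-0.17, adjusted p = 0.1112), with the replicate number as a block (-0.17, adjusted p = 0.05835), in the test against 1.5-fold (adjusted p = 1), and without NC replicate 2 (-0.15, adjusted p = 0.1438) or 3 (-0.18, adjusted p = 0.07041) or Melittin replicate 2 (-0.15, adjusted p = 0.132) or 3 (-0.16, adjusted p = 0.09057). The fall was larger without TMM (-0.41, adjusted p = 3.295e-05) and in limma on FPKM with 0.1 added (-0.40, adjusted p = 0.0002763) or 1 added (-0.33, adjusted p = 0.0003292). HSPA14 itself had 2304 counts, close to the 2188 of the unnamed gene, with 0.13 on the log2 scale (SE 0.0775, edgeR adjusted p = 0.1334).

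Unnamed genes were next set beside the named genes they overlap. In 14 pairs both genes were tested, and in 7 the 2 log2 fold changes had the same sign, in 3 of 10 pairs on the same strand and in 4 of 4 on opposite strands. In 11 of the 14 pairs the unnamed gene had not passed the test. The 14 pairs hold 10 unnamed genes, share all 6 libraries and may share reads, so these are descriptions. ZNF83 rose from 21.3 ± 0.140 to 39.0 ± 1.10 CPM (log2 fold change 0.87, SE 0.0636) while the unnamed gene inside it fell. As a percentage of the counts of ZNF83, that gene stood at 15.1, 15.7 and 13.7 in NC and 2.18, 3.23 and 1.503 in Melittin libraries.

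BCL6 rose together with its antisense gene, from 321.0 ± 3.804 to 740.5 ± 18.7 CPM (log2 fold change 1.21, SE 0.0254). The antisense gene shares 87.1% of its span with BCL6, and since the strand setting of the counting is not known, its reads and those of BCL6 cannot be told apart. As a percentage of BCL6 counts it stood at 1.15, 1.09 and 0.708 in NC and 1.92, 1.85 and 1.90 in Melittin libraries. The gene over HSPA14 stood at 97.7, 111.2 and 104.5% of HSPA14 in NC and at 97.5, 76.6 and 82.1% in Melittin libraries. In these 3 pairs, chosen after their values were seen, the groups did not overlap. For the gene over HSPA14 they lay apart only by 97.7% in NC replicate 1 against 97.5% in Melittin replicate 1. With groups apart, the two-sided exact permutation test can only give p = 0.1 for each pair (adjusted p = 0.1 over the 3 pairs). This is the smallest p that 3 against 3 libraries allow, so the test adds nothing to the separation already seen.

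**Figure D5:**
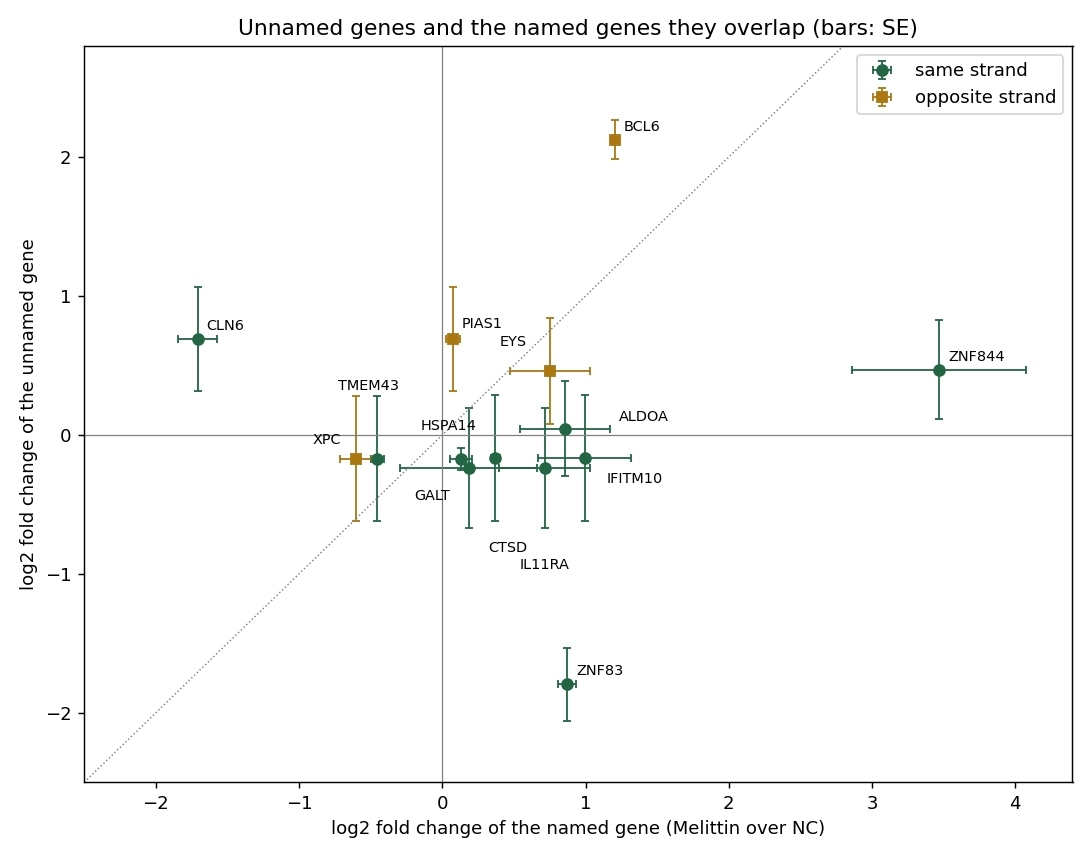
log2 fold change (Melittin over NC) of unnamed genes (vertical axis) against that of the named gene they overlap (horizontal axis, labelled), for the 14 pairs in which both were tested. Bars are SE, circles are pairs on the same strand, squares pairs on opposite strands, and the dotted line marks equal change. The pair with ZNF83 lies at 0.87 and -1.80, and the pair with BCL6 at 1.21 and 2.13.

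The 8 tested unnamed genes that did not pass had 57 to 137 counts in all. The gene over ALDOA had a log2 fold change of 0.05, with a 95% interval from -0.63 to 0.72, while ALDOA had 0.86 (SE 0.312, adjusted p = 0.0154). The gene that spans CALML4 and part of CLN6, a gene of a lysosomal storage disease, had 0.69 (95% interval -0.05 to 1.43, edgeR adjusted p = 0.09704), and its NC and Melittin values did not overlap. CLN6 fell, from 11.9 ± 1.08 to 3.66 ± 0.567 CPM. The readthrough gene over GALT and IL11RA had -0.24 (95% interval -1.09 to 0.61). The gene over IFITM10 and CTSD, which encodes the lysosomal protease cathepsin D, had -0.17 (95% interval -1.06 to 0.72), and the gene over TMEM43 also had -0.17 (95% interval -1.05 to 0.71). The gene over ZNF844 had 0.47 (95% interval -0.23 to 1.17), while ZNF844 itself had 0, 4 and 1 counts in NC and 12, 23 and 14 in Melittin libraries. A zinc finger gene inside EYS, on the other strand, had 0.46 (95% interval -0.29 to 1.21). Each of these intervals includes a 1.5-fold change in at least 1 direction. The scaffold gene on GL000218.1 had -0.52 (adjusted p = 0.1648) but passed without TMM (-0.75, adjusted p = 0.04453) and in limma on FPKM with 1 added (-0.23, adjusted p = 0.04827).

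Below the filter lay 127 unnamed genes with counts, with a median of 3 and at most 49 over all libraries. They held 664 counts in NC and 556 in Melittin libraries. More counts were in NC for 54 of them, in Melittin for 63, and equal for 10. When no filter was applied, 8 of these passed, 3 higher and 5 lower, for a total of 7 higher and 10 lower among 144 tested unnamed genes, where 59.9% of all genes with a count passed. The 8 rest on few reads and were named after their values were seen. A gene on scaffold GL000009.2 had 21, 8 and 16 counts in NC and 1, 2 and 1 in Melittin libraries, and one that overlaps SDHA and PDCD6 had 6, 13 and 2 against 0, 0 and 1. In the other direction, a gene 877 bases from LHB had 2, 0 and 0 counts in NC and 6, 3 and 7 in Melittin libraries.

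The other 5 were of several kinds. A readthrough gene over SLC35A1 and CFAP206 had 9, 15 and 11 counts in NC and 3, 4 and 1 in Melittin libraries. A readthrough gene over SRD5A3, which encodes a reductase of the dolichol pathway, had 3, 4 and 3 counts in NC and 0 in all 3 Melittin libraries. A gene 2094 bases from CHD9 had 9, 7 and 3 counts in NC and 0, 1 and 0 in Melittin libraries. The counts lay higher in Melittin libraries for a gene over ST6GALNAC2 (0, 3 and 0 against 8, 5 and 4) and for one on scaffold KI270734.1 (1, 1 and 0 against 5, 2 and 8).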

How the data were processed

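RNA from 3 NC and 3 Melittin libraries was sequenced, with NEBNext Ultra II RNA libraries per the labels' protocols. Per the submitters' processing notes the build was GRCh38. No aligner, counting program, strand setting or annotation is given in the sources used here. The authors deposited raw read counts per gene, and FPKM values made from each count, the table's gene length and the library total (relative deviation at most 2.2e-09), with coordinates and descriptions. Only mouse reference names were at hand, which cannot match human identifiers (0 of 20036 matched), so the unnamed genes could not be looked up. Most are given by position, and identifiers are printed for 2 that rose and 2 that fell. No sequences were used.

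Counts were tested with edgeR 4.0.16 in R 4.3.3 (filterByExpr, TMM, glmQLFTest), over the whole table. The test was also run on simulated counts in which 73, 70 and 55 of 11933 genes changed 1.5-fold, 2-fold and 4-fold. It recovered 84.9%, 97.1% and 100% of them, and 7.04% of its calls were false. Far fewer genes changed there than passed in the data (76.4%), so the simulation does not show how the test behaves here. An SE is the log2 fold change over the square root of F, and 95% intervals of fold changes use that SE and a normal distribution. The share of counts was planned with a permutation test, which is left out since it sums over chosen members. Genes named are the 10 largest rises and falls past the threshold with at least 1 CPM and groups that do not overlap (9 met this), the 5 highest by FPKM, and their overlapping or near named genes. Others were chosen after their values were seen. Members and lists were chosen with earlier results of these data known. Alternatives were DESeq2 1.42.0, limma 3.58.1, other scalings and filters, a replicate block and leaving out each library. All library pairs differed by more than sampling noise (chi-square per degree of freedom 1.73 to 3.92 within groups).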

Additional observations from a re-analysis of the deposited data

How the results depend on the processing

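Counts of 4 higher and 5 lower stayed within 1.5 times under the other scalings, DESeq2, limma-voom, FPKM and the filter of at least 1 CPM in 3 libraries. With a library left out there were 3 to 4 higher and 4 to 7 lower. The exceptions were no low-count filter (7 higher, 10 lower, with 144 rather than 17 genes tested), the test against 1.5-fold (2 higher) and the omission of genes overlapping another on the same strand (3 lower of 9 tested). Deviations of libraries with the same number were hardly correlated (-0.046, 0.018 and -0.019 for numbers 1, 2 and 3). Not every library correlates best with its own number. Across all NC and Melittin pairs the values ran only from -0.046 to 0.043, so they cannot show whether the numbers pair the libraries. With the replicate block 4 were higher and 4 lower. The difference in the share of counts (Melittin minus NC, -0.000259 percentage points, -0.000366 to -9.367e-05 with a library left out) turned to 0.00031 without the most abundant gene, to 0.0006998 without genes overlapping another on the same strand and to 0.00241 as a share of summed FPKM. The number overlapping a named gene on the same strand was 576, 354 when at least 50% of the span had to overlap and 67 when it lay wholly inside. Of 267 values for single genes under an alternative, 242 kept their direction and side of the threshold. Reversals were all in genes that did not pass. The gene over ALDOA went to -0.18 with library totals alone, -0.018 in limma-voom, -0.20 and -0.054 on FPKM with 0.1 and 1 added, and -0.41 (without Melittin replicate 1) to 0.27 (without Melittin replicate 3) with a library left out. With a library left out, the readthrough of GALT and IL11RA ranged from -0.54 (without Melittin replicate 1) to 0.045 (without NC replicate 2), the gene over CTSD from -0.58 (without Melittin replicate 3) to 0.15 (without Melittin replicate 1), and the gene over TMEM43 from -0.50 (without Melittin replicate 1) to 0.079 (without Melittin replicate 2). The cause was not tested. These 4 genes had 122, 71, 64 and 57 counts.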
